A study of Mus musculus with 10 samples.

Results

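Mitochondrial CpG methylation was read from reduced representation bisulfite sequencing (RRBS) of leukaemic mouse spleen cells. In the 10 deposited files, 179 CpG cytosines of the mitochondrial chromosome were listed, and those with 10 or more reads were taken. At that minimum 14 cytosines were covered in at least 1 library and 8 in all 10 libraries. Over all chromosomes 1514102 of 8185408 listed CpG cytosines reached 10 reads in at least 1 library, and 276601 did so in all 10. The choice used position and depth, not the methylation level.

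The libraries formed 4 groups. MLL-AF9 leukaemia, driven by a fusion oncoprotein, was sampled as c-kit+ leukaemic spleen cells from Dnmt3b-knockin (n = 3) and WT (n = 3) leukaemias. The cMyc-Bcl2 leukaemia, driven by the transcription factor cMyc together with Bcl2, which blocks apoptosis, was sampled as leukaemic spleen cells from Dnmt3b-knockin (n = 2) and WT (n = 2) leukaemias. The knockin is tetracycline-inducible, and the design text sets high Dnmt3b levels against physiological ones; the labels give no inducer, dose, duration or age. Only the MLL-AF9 cells carry a c-kit label, so the oncogene and the c-kit selection cannot be told apart. How far reads reached into a fragment also differed between the models (below), so the oncogene and the sequencing cannot be told apart either. Nothing in the labels says whether the libraries of a group came from separate animals, so p-values measure the spread between these libraries.

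Mitochondrial DNA is a small circular genome present in many copies per cell and packaged without histones. Dnmt3b is a de novo DNA methyltransferase that acts on nuclear chromatin, and whether mammalian mitochondrial DNA carries CpG methylation at all is debated. Bisulfite turns unmethylated cytosine into uracil, read as thymine, so a cytosine that escapes conversion is counted as methylated; mitochondrial DNA is often used as a gauge of such cytosines for that reason. In RRBS the DNA is cut at CCGG by MspI, whether or not the inner cytosine is methylated, and each read begins at the CpG of a cut site.

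The deposited files hold a pair of read numbers per cytosine, read here as methylated and unmethylated reads, with the strands listed apart. A level is the percentage of reads called methylated. Libraries held 14446933 to 46762220 read calls (1 read over 1 CpG cytosine) in all and 5903 to 81907 on the mitochondrial chromosome. Of the mitochondrial calls, 99.4 to 99.95% lay on cytosines with at least 10 reads. The rest, 25 to 120 calls per library, held at most 2 methylated calls in any library. Intervals given below are 95% Clopper-Pearson intervals, which cover counting error only, since reads without molecular identifiers are not independent molecules.

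The 8 cytosines covered everywhere were taken as both strands of 2 MspI fragments of the mitochondrial chromosome in build mm9, inferred from position, strand and depth. The short fragment spans positions 3333 to 3402 (70 bp between its outer CpG cytosines) and the long one positions 6275 to 6390 (116 bp). No sequence or annotation of mm9 was used, so the CCGG sites were not looked up and no mitochondrial gene is named for these fragments. In each fragment the first CpG cytosine of a read on the forward strand (3333 and 6275) and on the reverse strand (3402 and 6390) is called a read start here. Inner cytosines lie further along the read: 3344 lies 11 bp from its read start, 3387 and 3396 lie 15 and 6 bp from the reverse one, and 6311 lies 36 bp from its own. As a check of the chromosome label, not of the cut sites, reads were set against nuclear fragments inferred in the same way. The short fragment had 47.4 to 437 times the reads of an average nuclear fragment within 5 bp of its length (9414 such fragments), and the long fragment 27.3 to 297 times (7226 fragments).

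Methylated calls on mitochondrial DNA lay almost wholly on the read starts. Over the 10 libraries the long fragment's read starts had the highest levels, 6.51% at 6390 (range 3.23 to 8.93) and 6.43% at 6275 (3.73 to 8.69). The short fragment's read starts had lower ones, 3.92% at 3333 (2.31 to 5.62) and 2.93% at 3402 (1.78 to 4.19). Mean levels of the inner cytosines were 0.0401% at 3344, 0.0661% at 3387, 0.100% at 3396 and 0.0653% at 6311, and none exceeded 0.288% in any library. In each of the 10 libraries the lowest read start was above the highest inner cytosine.

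The inner cytosines together held 104 methylated calls of 174766 (0.0595%, interval 0.0486 to 0.0721). MLL-AF9 knockin libraries had 33 of 23755 (0.139%, 0.0956 to 0.195), against 22 of 40130 in MLL-AF9 WT libraries (0.0548%, 0.0344 to 0.0830). That group difference came with 1 library: MLL-AF9 knockin replicate 2 had 27 of 11904 (0.227%, 0.150 to 0.330), while the other knockin replicates had 2 of 3103 (0.0645%) and 4 of 8748 (0.0457%). The cMyc-Bcl2 knockin libraries had 20 of 52360 (0.0382%, 0.0233 to 0.0590) and the cMyc-Bcl2 WT libraries 29 of 58521 (0.0496%, 0.0332 to 0.0712). At single cytosines the depth set the limit: at 6311, cMyc-Bcl2 WT replicate 1 had 0 of 4643 reads methylated, with an interval of 0 to 0.0794%.

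**Figure D1:**
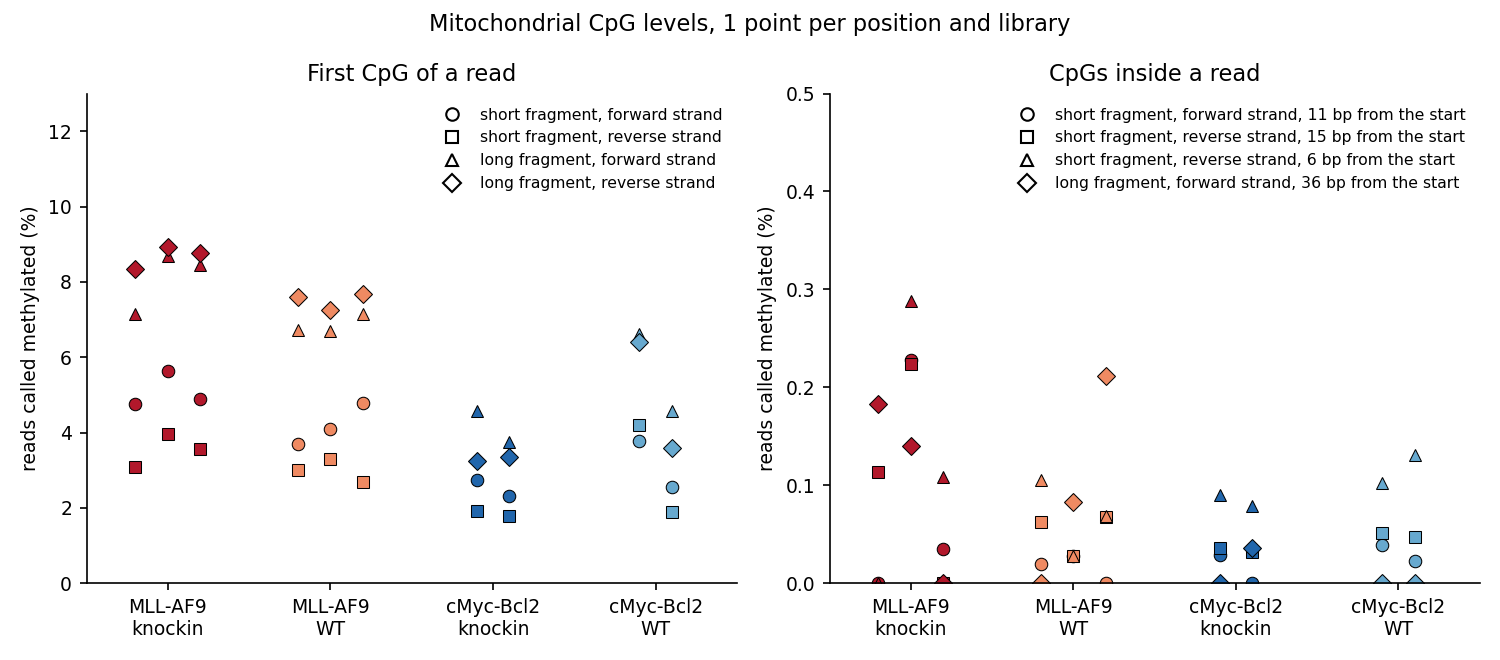
Percentage of reads called methylated at the 8 mitochondrial cytosines covered in all 10 libraries, by group; each point is 1 cytosine in 1 library, symbols give the cytosine, and both vertical axes are linear and start at 0 but differ in range. Read starts (left) lie between 1.78 and 8.93%, and inner cytosines (right) at or below 0.288%.

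Among the read starts, both of the long fragment were above both of the short fragment in 10 of 10 libraries. The short fragment's forward read start was above its reverse one in 9 of 10, with cMyc-Bcl2 WT replicate 1 the exception. In the long fragment the reverse read start was above the forward one in 6 of 10 libraries, the MLL-AF9 ones. A hot position was set as one with at least 3 times the mean level of the library in at least 8 libraries, and 0 positions met this, the highest ratio in any library being 2.90. At least 2 times the mean was met by 2 positions, 6275 and 6390, the long fragment's read starts. A looser reading, a level above the library's mean in at least 8 libraries, was chosen after the levels were seen and gave 4 positions, the read starts. In the 6 MLL-AF9 libraries alone, 3333, 6275 and 6390 were above the mean in all 6 and 3402 in 5. All 4 were above it in all 4 cMyc-Bcl2 libraries, and the inner cytosines in none of the 10.

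The remaining 6 of the 14 cytosines had at least 10 reads only in some libraries. Position 3386, 53 bp along the forward reads of the short fragment, was covered by 8202 to 17125 reads in the 4 cMyc-Bcl2 libraries, with levels of at most 0.0409%, and by at most 3 reads in MLL-AF9 libraries. Read reach differed between the models: at nuclear cytosines 50 bp from a read start, median depth was 0 of the read start's in all 6 MLL-AF9 libraries and 0.875 to 0.968 of it in cMyc-Bcl2 libraries. Position 3345, 57 bp along the reverse reads of the short fragment, had no methylated call in any library. Position 6276 begins the reverse reads of the neighbouring fragment and had at least 10 reads in 6 libraries. Its level was 4.44% in MLL-AF9 knockin replicate 2 (6 of 135), against 5.26% (7 of 133) and 2.56% (2 of 78) in MLL-AF9 WT replicates 2 and 3. It had 0 of 25 reads methylated in cMyc-Bcl2 knockin replicate 2, against 9 of 182 (4.95%) and 0 of 10 in cMyc-Bcl2 WT replicates 1 and 2. The cytosines 12 and 44 bp along those reads, 6264 and 6232, had at most 2 methylated calls in a library. In MLL-AF9 WT replicate 3 the inner cytosine 6264 had 2 of 78 reads methylated, the same as the read start, so the contrast was not seen there, nor where 6276 had no methylated read. Position 1872, the first cytosine of a reverse read, had 3 of 15 reads methylated in cMyc-Bcl2 knockin replicate 1 and 0 of 19 in knockin replicate 2 (interval 0 to 17.6%).

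Nuclear CpGs of dense regions were set beside these values as the floor for unconverted cytosines. They were the 126889 autosomal cytosines with at least 10 reads in all 10 libraries that lay in windows of 1 kb with 100 or more listed cytosines. There were 6945 such windows whatever their depth, and how many held these cytosines was not counted. Stretches dense in CpGs, such as CpG islands, are usually unmethylated. Averaged over all 8 cytosines, the mitochondrial level was 1.41 to 3.51% and the mean dense nuclear level 2.30 to 4.71%. The mitochondrial level was lower by 0.727 percentage points on average, which did not pass an exact sign-flip permutation test over the 10 libraries (p = 0.0898). The sign depends on what is averaged: the median over windows put the mitochondrial level 1.35 points higher (p = 0.00195, exact sign-flip permutation test, the smallest it can give). Inner mitochondrial cytosines alone were 3.17 points below the dense nuclear mean (p = 0.00195, same exact test), and read starts alone 1.71 points above it (p = 0.0273, same exact test).

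The contrast along the read was also present in nuclear DNA. Among cytosines of the dense windows, 5628 were read starts and 32873 were inner cytosines, told apart by position and depth alone. The median nuclear read start had a level of 2.86 to 6.06% across libraries, and the median inner cytosine a level of 0% in every library. Of the inner cytosines 70.2 to 86.6% had no methylated read, against 15.5 to 42.7% of the read starts. For the 5378 read starts with an inner cytosine on the same read, the read start exceeded its own inner cytosines by 3.78 points on average, 2.03 to 5.41 by library (p = 0.00195, exact sign-flip permutation test, the smallest it can give). The step lay within the first 10 bp: in MLL-AF9 knockin replicate 2 the mean level was 9.45% at the read start, 3.05% at 1 to 10 bp and 3.06% at 31 to 40 bp.

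**Figure D2:**
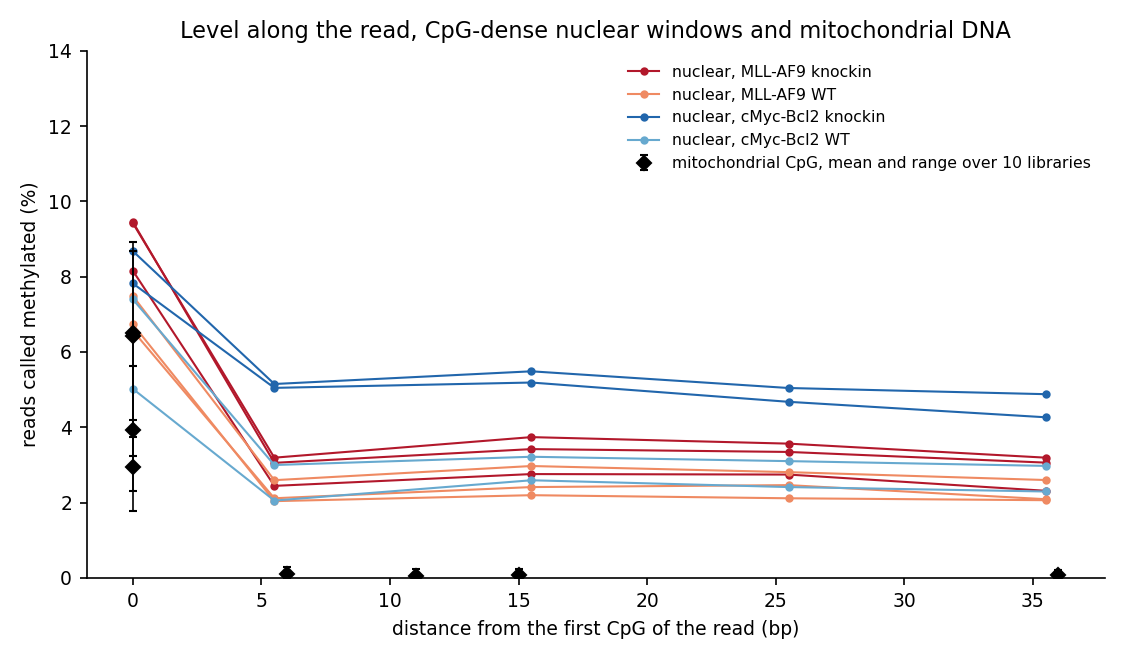
Mean percentage of reads called methylated against the distance from the first CpG of the read, in nuclear cytosines of CpG-dense windows (lines, 1 per library, coloured by group) with the 8 mitochondrial cytosines overlaid (diamonds with the range over 10 libraries). Levels drop from the read start to the following bins in each nuclear line, and mitochondrial inner cytosines lie near 0 below all nuclear lines.

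Read starts of mitochondrial DNA differed from nuclear ones by mean and by median in opposite directions. They were 2.72 points below the mean of nuclear read starts and 0.602 points above their median (p = 0.00195 and 0.00781, exact sign-flip permutation tests). Nuclear fragments of the short length averaged only 11.9 to 32.8 reads by library, so single nuclear levels move in coarse steps. The part of depth in the difference from the median was not tested. Mitochondrial inner cytosines were 3.02 points below the nuclear inner mean (p = 0.00195, same exact test). The nuclear inner median was 0 in every library, below which no level can lie. The sign of a difference from it was therefore fixed beforehand, and nothing is concluded from a test against it. Methylated cytosines within dense windows would raise the nuclear mean more than the median, and their share was not tested.

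Across libraries, mitochondrial read starts went with nuclear read starts. The mean level of the 4 mitochondrial read starts was correlated with the median nuclear read start (Pearson's r = 0.952, permutation p = 2e-05, adjusted p = 8e-05; Spearman's rho = 0.888, permutation p = 0.00101; n = 10). Without the 2 libraries farthest from the median on the nuclear axis r was 0.926 (n = 8), and within the 6 MLL-AF9 libraries it was 0.965 (exact permutation p = 0.00278). Against the nuclear difference of read start and inner cytosine, r was 0.968 (permutation p = 4e-05, adjusted p = 8e-05; rho = 0.952, permutation p = 0.00011), 0.936 without the 2 farthest libraries and 0.886 in MLL-AF9 (exact permutation p = 0.0208). Both axes come from the same libraries and share conversion and processing, and both relations were added after the levels had been seen.

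The other 2 relations did not pass by Pearson's r. The mitochondrial level over 8 cytosines and the mean dense nuclear level had r = -0.356 (permutation p = 0.313, adjusted p = 0.313; rho = -0.188, permutation p = 0.608). That value rested on the cMyc-Bcl2 knockin libraries: without these 2, r was 0.666, and within MLL-AF9 it was 0.651 (exact permutation p = 0.156). The mitochondrial level and mitochondrial depth had r = -0.536 (permutation p = 0.110, adjusted p = 0.146; rho = -0.685, permutation p = 0.0340), -0.381 without the 2 farthest libraries and -0.551 within MLL-AF9 (exact permutation p = 0.247). Adjustment was over these 4 relations.

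**Figure D3:**
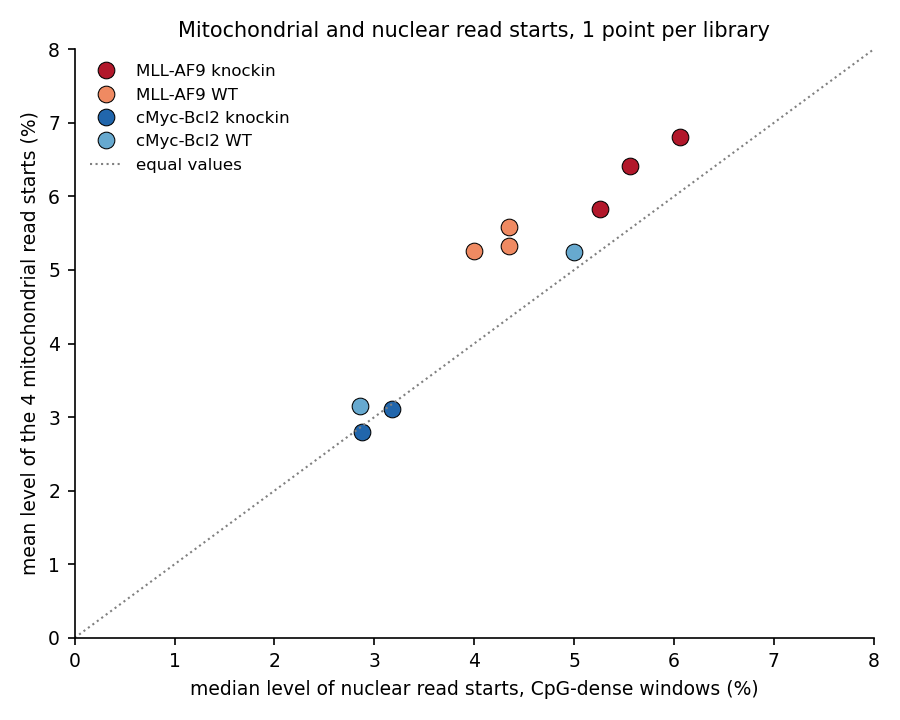
Mean level of the 4 mitochondrial read starts against the median level of nuclear read starts in CpG-dense windows, both in percent of reads called methylated; each point is 1 library, coloured by group, and the dotted line marks equal values. MLL-AF9 knockin libraries lie highest on both axes, and 3 of the 4 cMyc-Bcl2 libraries lie lowest.

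Knockin was then compared with WT within each oncogene. In MLL-AF9 leukaemia the mean mitochondrial level over 8 cytosines was 2.95, 3.51 and 3.22% in knockin libraries and 2.65, 2.68 and 2.83% in WT libraries. Every knockin library was above every WT library. The difference was 0.506 points, 3.23% ± 0.279 in knockin against 2.72% ± 0.0966 in WT (SD, n = 3 each), with an exact two-sided permutation p of 0.1, the smallest that 3 against 3 allows. With all reads of the 8 cytosines pooled in place of equal weights, the levels were 2.57, 3.23 and 2.01% in knockin libraries and 1.81, 2.44 and 2.60% in WT libraries. They then overlapped, and the difference was 0.322 points (exact permutation p = 0.5). The read starts alone had a mean of 6.35% ± 0.489 in knockin and 5.39% ± 0.169 in WT libraries (SD, n = 3 each), while inner cytosines had 0.110% ± 0.0971 in knockin and 0.0583% ± 0.0249 in WT libraries and overlapped (exact permutation p = 0.7, n = 3 each).

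Nuclear read starts of the dense windows moved the same way in these libraries. Their median was 5.63% ± 0.403 in MLL-AF9 knockin and 4.23% ± 0.201 in MLL-AF9 WT libraries (SD, n = 3 each), again without overlap (exact permutation p = 0.1). The mean dense nuclear level was 3.35% ± 0.436 in knockin and 2.60% ± 0.238 in WT libraries, which overlapped (exact permutation p = 0.2, n = 3 each). The part of the nuclear read-start level in the mitochondrial difference was not tested.

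By position, the long fragment's read starts separated the MLL-AF9 genotypes. Position 6275 had 7.16, 8.69 and 8.44% in knockin libraries, against 6.72, 6.68 and 7.15% in WT libraries. Knockin replicate 1 and WT replicate 3 lay almost at the same level there, so the groups only just did not overlap. Position 6390 had 8.33, 8.93 and 8.76% in knockin libraries, against 7.59, 7.25 and 7.69% in WT libraries, without overlap. Counting error was wider than the gap at 6390. The intervals were 6.14 to 10.99% in knockin replicate 1 and 6.65 to 8.84% in WT replicate 3. Each difference, 1.24 points at 6275 and 1.16 points at 6390, had an exact permutation p of 0.1, the smallest possible for n = 3. Position 3333 had 4.76, 5.62 and 4.88% in knockin libraries, against 3.71, 4.10 and 4.78% in WT libraries, and position 3402 had 3.08, 3.97 and 3.56% in knockin libraries, against 3.00, 3.28 and 2.69% in WT libraries. These short-fragment read starts overlapped between genotypes. Over all cytosines of the MLL-AF9 comparison, 5.42% were higher in every knockin than in every WT library, and among nuclear read starts of dense windows 9.14% were. Nuclear fragments of like length had far fewer reads than the mitochondrial ones, so these shares are not a like background.

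In cMyc-Bcl2 leukaemia the mitochondrial level, over 9 cytosines with 3386 included, was 1.40 and 1.26% in knockin libraries and 2.35 and 1.43% in WT libraries. Both knockin libraries were below both WT libraries, but WT replicate 2 was almost at the level of knockin replicate 1. The difference of -0.558 points, 1.33% ± 0.102 in knockin against 1.89% ± 0.655 in WT (SD, n = 2 each), had an exact permutation p of 0.333, the smallest that 2 against 2 allows. WT replicate 1 decided its size: without that library the difference was -0.0853 points. With reads pooled over the 9 cytosines it was -0.534 points and the groups overlapped (exact permutation p = 1). A minimum of 5 reads, which lets in cytosines with few reads, gave -0.104 points (exact permutation p = 0.667). The read starts averaged 2.95% ± 0.227 in knockin and 4.2% ± 1.48 in WT libraries (SD, n = 2 each). The median nuclear read start was 3.03% ± 0.210 in knockin and 3.93% ± 1.52 in WT libraries and overlapped (SD, n = 2 each), and WT replicate 1 was also the highest of these 4 libraries there, at 5.0%. By mean, nuclear levels went the other way without overlap. Nuclear read starts averaged 8.68 and 7.82% in knockin against 7.39 and 5.02% in WT libraries. The mean dense nuclear level was 4.71 and 4.33% in knockin against 3.17 and 2.30% in WT libraries.

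The cMyc-Bcl2 read starts had the following levels. Position 6275 had 4.58 and 3.73% in knockin libraries, against 6.61 and 4.58% in WT libraries. Position 6390 had 3.23 and 3.36% in knockin libraries, against 6.40 and 3.58% in WT libraries. At both, knockin libraries lay below WT libraries without overlap, though at 6275 knockin replicate 1 and WT replicate 2 were alike to 3 digits. At 6390 counting error was wider than the gap, with intervals of 2.87 to 3.90% in knockin replicate 2 and 2.70 to 4.66% in WT replicate 2. Position 3333 had 2.73 and 2.31% in knockin libraries, against 3.78 and 2.55% in WT libraries. Position 3402 had 1.92 and 1.78% in knockin libraries, against 4.19 and 1.88% in WT libraries. Knockin replicate 1 was above WT replicate 2 at both short-fragment read starts, so these overlapped. The inner cytosines 3387 and 3396 also did not overlap, 0.0337% ± 0.00330 in knockin against 0.0493% ± 0.00259 in WT libraries at 3387 and 0.0843% ± 0.00826 in knockin against 0.117% ± 0.0198 in WT libraries at 3396 (SD, n = 2 each). The counts behind 3387 were 2 and 2 methylated reads in knockin and 2 and 4 in WT libraries, and those behind 3396 were 5 and 5 in knockin and 4 and 11 in WT libraries. Counting error is wider than these gaps: at 3387 the interval was 0.00436 to 0.130% in knockin replicate 1 and 0.00619 to 0.184% in WT replicate 1. Of all cytosines in the cMyc-Bcl2 comparison 7.51% were lower in every knockin than in every WT library, and of nuclear read starts in dense windows 14.1% were. These shares too come from cytosines with far fewer reads than the mitochondrial ones.

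For both models together the 8 cytosines covered in all 10 libraries were used, which left the MLL-AF9 difference at 0.506 points and made the cMyc-Bcl2 difference -0.627 points. The mean of these within-oncogene differences was -0.0606 points (exact permutation p = 0.933, genotype permuted within oncogene). The knockin difference in MLL-AF9 exceeded that in cMyc-Bcl2 by 1.13 points, and permuting oncogene labels within genotype gave an exact p of 0.22. That permutation also assumes equal levels in both models, so its p cannot decide whether the knockin differences differ. Between the models, cMyc-Bcl2 libraries were 1.17 points below MLL-AF9 libraries within genotype (exact permutation p = 0.01, the smallest that 100 arrangements allow). Inner cytosines alone did not show that difference, at -0.0408 points (exact permutation p = 0.4). The oncogene, the c-kit selection and the sequencing cannot be told apart in these values.

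A model fitted to the reads of each cytosine called no mitochondrial cytosine. It was a quasi-binomial logistic fit with limma-moderated dispersion, adjusted by the Benjamini-Hochberg method over all autosomal and mitochondrial cytosines. In MLL-AF9 it called 0 of 8 mitochondrial cytosines at an adjusted p under 0.05, where 0.000263% of all 379847 cytosines were called. Unadjusted p-values were under 0.05 at 5 of the 8 (3333, 3344, 3402, 6275 and 6390, all higher in knockin), against 6.72% of all cytosines. Adjusted p-values of these 5 in the quasi-binomial fit were 0.455 at 3333, 0.565 at 3344, 0.667 at 3402, 0.600 at 6275 and 0.712 at 6390. The count rested on 1 library: it was 0 without knockin replicate 2, against 4.65% of all cytosines. It was 3 or 4 without any other, against 4.37 to 6.74% of all cytosines. limma on M-values, the log2 ratio of methylated to unmethylated reads, gave 1, against 7.67% of all cytosines. These positions also share libraries and fragments, so they are not 5 separate observations. Nuclear fragments had far fewer reads, on average 11.9 to 32.8 by library at the short length and 4.94 to 26.3 at the long one. The share of all cytosines is therefore not a background of like power, here or in the fits below.

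The cMyc-Bcl2 fit called 0 of 9 mitochondrial cytosines, where 0% of 700122 were called, and had 2 unadjusted p-values under 0.05 (6275 and 6390, lower in knockin), against 8.05% of all cytosines. That count was 0 without WT replicate 1, knockin replicate 1 or knockin replicate 2, 3 without WT replicate 2, and 0 by limma on M-values. The additive fit of both models called 0 of 8, where 0.189% of 274647 were called, and had 0 unadjusted p-values under 0.05, against 8.65% of all cytosines; without MLL-AF9 knockin replicate 2 there were 2. limma on M-values called 0 mitochondrial cytosines in each comparison. Over all cytosines it called 0 in MLL-AF9, 0 in cMyc-Bcl2 and 168 of 274647 in the additive fit. Fisher's exact test on pooled reads, which ignores the spread between libraries, called 1 in MLL-AF9 (3333) and 4 in cMyc-Bcl2 (the read starts). Over all cytosines it called 10922 of 379847 in MLL-AF9 and 84120 of 700122 in cMyc-Bcl2.

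Mitochondrial depth was lower in knockin than in WT libraries of both models. Counted as mitochondrial calls per 1000000 autosomal calls, MLL-AF9 knockin libraries had 340, 861 and 485, against 1698, 1046 and 1520 in MLL-AF9 WT libraries. The groups did not overlap, and knockin libraries averaged 562 ± 269 against 1421 ± 337 in WT libraries (SD, n = 3 each), a log2 difference of -1.42 (exact permutation p = 0.1, the smallest possible). The cMyc-Bcl2 knockin libraries had 1370 and 1526, against 2081 and 1781 in cMyc-Bcl2 WT libraries. These groups did not overlap either, with 1448 ± 110 in knockin and 1931 ± 212 in WT libraries (SD, n = 2 each) and a log2 difference of -0.41 (exact permutation p = 0.333, the smallest possible). Within oncogene over all 10 libraries the log2 difference was -0.92 (exact permutation p = 0.0167, the smallest that 120 arrangements allow), with 5 of 5 knockin libraries below all WT libraries of their model. Fewer copies of mitochondrial DNA per cell, fewer cells rich in it and differences in library preparation cannot be told apart in these bulk samples, and none was tested.

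Depth was also set against nuclear fragments of like length, because the ratio of long to short nuclear fragments ranged from 0.272 to 1.14 between libraries. The short fragment had 47.4, 149 and 87.7 times the reads of such nuclear fragments in MLL-AF9 knockin libraries, against 372, 186 and 254 times in MLL-AF9 WT libraries, again without overlap. The long fragment had 48.1, 118 and 42.3 times in MLL-AF9 knockin libraries, against 239, 154 and 215 times in MLL-AF9 WT libraries, likewise without overlap. In cMyc-Bcl2 the short fragment had 380 and 292 times in knockin libraries, against 437 and 397 times in WT libraries, without overlap. The long fragment overlapped there, with 27.3 and 225 times in knockin libraries, against 297 and 51.4 times in WT libraries. Within oncogene the log2 difference was -0.97 for the short fragment (exact permutation p = 0.0167), -1.17 for the long one (exact permutation p = 0.267) and -1.07 for the mean of both (exact permutation p = 0.0833).

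The depth difference between the models depended on the fragment. The cMyc-Bcl2 libraries had 0.97 more on the log2 scale than MLL-AF9 libraries within genotype (exact permutation p = 0.04), and the p was 0.05 without cMyc-Bcl2 WT replicate 1 or 2 or MLL-AF9 WT replicate 2 or 3. Total calls rest on unlike cytosines in the models, because reads reached further in cMyc-Bcl2 libraries. Position 3386 had 8202 to 17125 reads there and at most 3 in MLL-AF9 libraries, and nuclear calls were affected too. Over nuclear fragments of like length, cMyc-Bcl2 libraries had 1.32 more on the log2 scale for the short fragment (exact permutation p = 0.02) and -0.18 for the long one (exact permutation p = 0.86). The knockin difference in MLL-AF9 minus that in cMyc-Bcl2 was -1.0 on the log2 scale (exact permutation p = 0.31). That permutation of oncogene labels also assumes equal depth in both models, so it cannot decide whether the knockin differences differ.

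**Figure D4:**
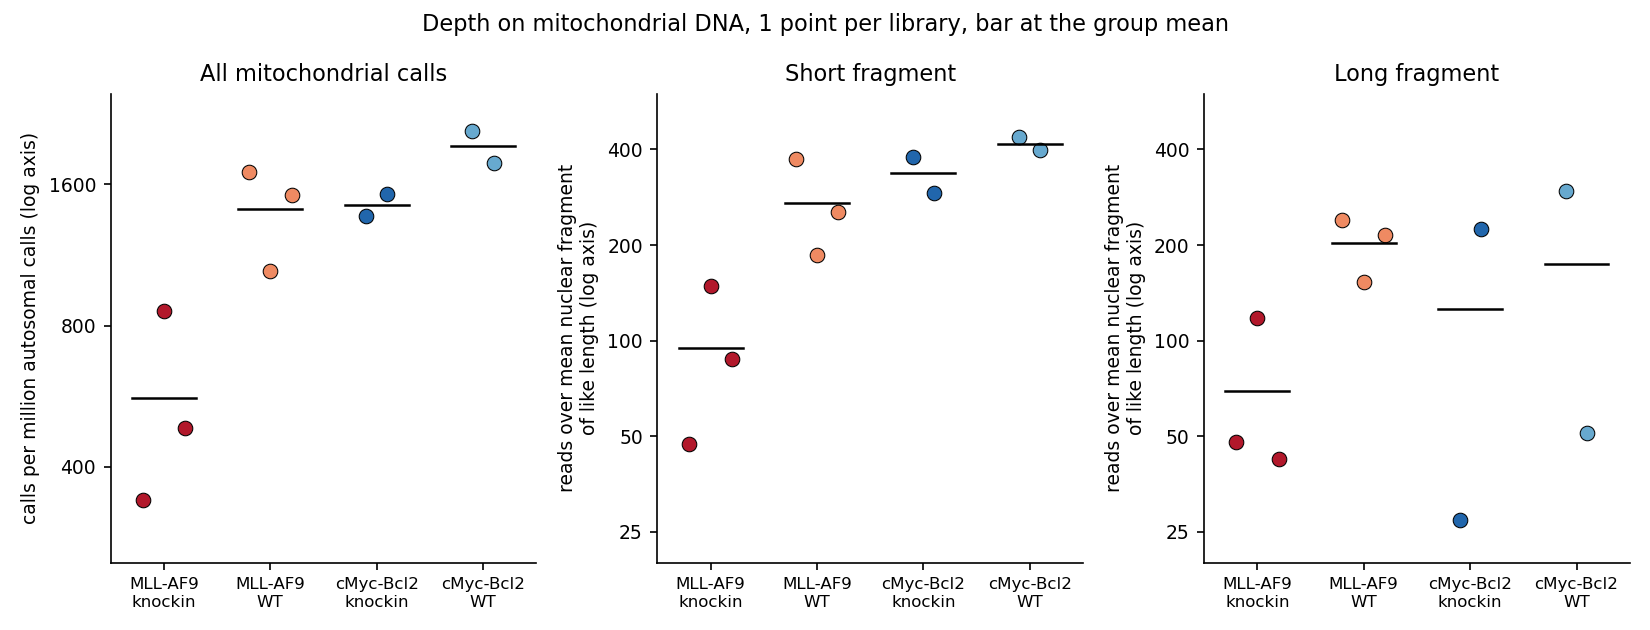
Mitochondrial depth per library by group on log axes: all mitochondrial calls per 1000000 autosomal calls (left), and reads of the short (middle) and long (right) mitochondrial fragment over the mean of nuclear fragments of like length; points are libraries and bars group means. Knockin points lie below WT points of their model in the left and middle panels, and in the right panel only for MLL-AF9.

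The balance of the 2 fragments set some libraries apart. The ratio of long to short mitochondrial fragment reads was 0.647, 0.676 and 0.131 in MLL-AF9 knockin libraries and 0.240, 0.696 and 0.70 in MLL-AF9 WT libraries. Nuclear fragments of the same lengths had ratios of 0.638, 0.850 and 0.272 in those knockin libraries and 0.374, 0.844 and 0.828 in those WT libraries, low in the same libraries. In cMyc-Bcl2 the mitochondrial ratio was 0.0740 and 0.711 in knockin libraries and 0.773 and 0.104 in WT libraries, while the nuclear ratio was 1.03 and 0.925 in knockin and 1.14 and 0.801 in WT libraries. So cMyc-Bcl2 knockin replicate 1 and cMyc-Bcl2 WT replicate 2 had few reads of the long mitochondrial fragment without a matching lack of long nuclear fragments. The number of reads behind the long fragment's levels was correspondingly small there, 590 and 835 reads at 6275 and 6390 in the knockin library and 1223 and 1479 in the WT library.

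**Figure D5:**
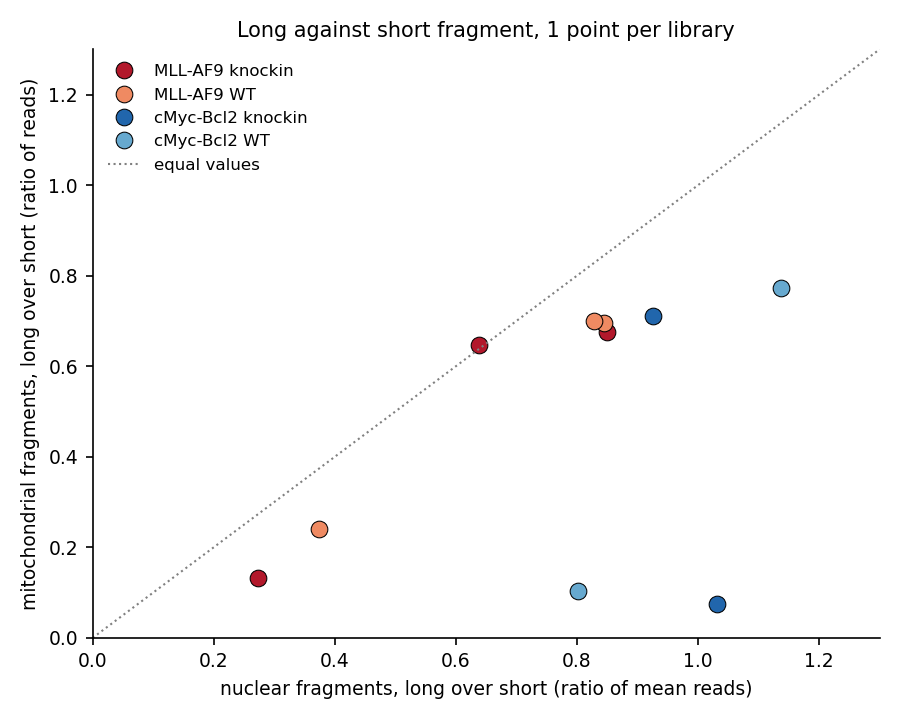
Ratio of long to short fragment reads on mitochondrial DNA against the same ratio of nuclear fragments of like lengths; each point is 1 library, coloured by group, and the dotted line marks equal values. The cMyc-Bcl2 libraries at mitochondrial ratios of 0.0740 and 0.104 lie far below the line at nuclear ratios of 1.03 and 0.801.

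Strand balance on the short fragment differed between the models as well. Forward reads over reverse reads was 2.49 and 1.33 in cMyc-Bcl2 knockin libraries and 2.60 and 2.12 in cMyc-Bcl2 WT libraries. In MLL-AF9 it was 0.910, 1.12 and 1.03 in knockin libraries and 1.08, 1.01 and 1.09 in WT libraries. Nuclear fragments of like length had 0.994 to 1.02 in all 10 libraries. The level of the short fragment's reverse read start in cMyc-Bcl2 therefore rests on fewer reads than that of its forward one, 3914 to 8351 against 8454 to 17705.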

How the data were processed

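RRBS was run on 10 libraries that fall into 4 groups. MspI digestion of 0.3 to 1 µg of DNA was followed by gel selection of 40 to 280 bp inserts, bisulfite conversion and sequencing with 45% PhiX, per the labels' protocols. The build was mm9 and the software CASAVA, methylKit, Bismark 0.7.4 and Trim Galore 0.2.2, per the submitters' processing notes, with settings not given in the sources used. The deposited files hold, per CpG cytosine, a pair of read counts, read as methylated and unmethylated. Each chromosome is listed in ascending order once per strand, offset by 1 bp, so strands were kept apart.

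A read start is a cytosine with 10 or more reads in at least 1 library and no other within 100 bp before it on its strand. Inner nuclear cytosines followed it on its strand, linked by gaps of at most 100 bp, and needed 0.9 to 1.1 times its depth. Their distance from it had no limit. Levels were averaged over cytosines per library. Exact permutation tests were two-sided. The fit across cytosines with 10 or more reads in all its libraries used limma 3.58.1 in R 4.3.3, with dispersion held at 1 or above, and was tested on simulated data; other steps used Python 3.11.15, numpy 2.4.6, pandas 2.3.3 and scipy 1.17.1. Correlations over 10 libraries used 100000 permutations. Alternatives were a minimum of 20 or of 5 reads, levels weighted by depth, other windows, depth measures and tests, and leaving out each library. Positions named were those of highest level or most reads, those unadjusted tests or non-overlap singled out, and others after their values were seen. The members, lists and tests were chosen with earlier results of these data known.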

Additional observations from a re-analysis of the deposited data

Results flagged for a closer look

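With cytosines weighted equally, the knockin difference in mitochondrial level had opposite signs in the models, with no overlap of genotypes in either. With reads pooled over cytosines the genotypes overlapped in both (exact permutation p = 0.5 in MLL-AF9 and 1 in cMyc-Bcl2). Over the 8 cytosines it was higher in MLL-AF9 than in cMyc-Bcl2 by 1.13 points (exact permutation p = 0.22), and over the 4 read starts by 2.20 points (exact permutation p = 0.22). At position 6275 it was higher by 2.69 points (exact permutation p = 0.27) and at position 6390 by 2.86 points (exact permutation p = 0.28), each with an adjusted p of 0.526 over the 8 positions. None of these tests of the difference passed, and cMyc-Bcl2 had 2 libraries per genotype. The tests permute oncogene labels and so also assume equal levels in both models. They therefore cannot decide whether the knockin differences differ.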

How the results depend on the processing

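Of 206 recomputed values, 104 came from permutation tests that could reach p under 0.05, and 78 of these kept their direction and their side of the threshold. Another 58 came from designs too small to pass, for which staying on that side shows no stability. The cause of each change below was not tested, unless the setting itself shows it. The knockin difference in level within oncogene (-0.0606 points) was 0.0200 on inner cytosines and -0.32 to 0.20 with 1 library left out, positive without cMyc-Bcl2 WT replicate 1 or MLL-AF9 knockin replicate 1. The cMyc-Bcl2 minus MLL-AF9 level (-1.17 points) was -0.0408 on inner cytosines, whose levels are too low to differ by 1.17 points. The mitochondrial minus dense nuclear level (-0.727) was -1.14 weighted by reads, -3.17 on inner cytosines, 1.71 on read starts, -1.59 with windows of 60 or more listed cytosines, 1.35 with the median over windows, and -0.850 to -0.459 with 1 library left out, passing without MLL-AF9 WT replicate 3 or knockin replicate 3. Against nuclear medians in place of means, read starts gave 0.602 in place of -2.72 and inner cytosines 0.0679 in place of -3.02, where a median of 0 allows only a positive sign. The dense nuclear knockin difference within oncogene (1.26 points, exact permutation p = 0.0333) was 0.0242 with the median over windows, 0.394 with a minimum of 20 reads (exact permutation p = 0.0167) and 1.05 to 1.48 with 1 library left out, with p = 0.05 without MLL-AF9 WT replicate 1 or 3 or knockin replicate 1 or 2; in cMyc-Bcl2 it was 1.78, -0.262 with the median and 0.289 with 20 reads. Depth within oncogene (log2 -0.92) did not pass with the long fragment (-1.17) or both (-1.07), and the model difference (0.97) was -0.18 with the long fragment, 0.57 with both and 0.81 to 1.15 with 1 library left out. Hot positions numbered 0, and 2 or 4 at the looser levels; with none found, leaving them out gave no value, and read starts and inner cytosines were taken apart instead, after the data were seen. Fisher's exact test called 1 mitochondrial cytosine in MLL-AF9 and 4 in cMyc-Bcl2 in place of 0. Over all cytosines it called 10922 of 379847 and 84120 of 700122. The correlation of mitochondrial and dense nuclear level (-0.356) was 0.666 without the 2 cMyc-Bcl2 knockin libraries and 0.651 in MLL-AF9. No paired analysis was possible because the labels give no replicate numbers; those used follow accession order. The 8 cytosines had 354 to 17809 reads each per library.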
